A study of Mus musculus with 10 samples.

Results

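Zinc transporters and metallothioneins were examined in pancreatic islets that lack the lipid droplet protein FIT2 in β cells. The members were 10 genes, found by symbol among the 47340 genes of the deposited table: the Slc30a genes Slc30a8, Slc30a1, Slc30a5, Slc30a7 and Slc30a9, the Slc39a genes Slc39a6, Slc39a7 and Slc39a14, and the metallothioneins Mt1 and Mt2. Islet RNA of 5 βFIT2KO (KO) mice and of 5 floxed controls (FL) was sequenced, with 1 library per mouse. All were males aged 12 wk and fed chow, and their islets recovered overnight in CMRL medium before RNA was taken. FL mice carry FIT2 fl/fl alleles, are titled Flox and are labelled wild type by genotype, and KO mice carry the same alleles and Cre recombinase driven by the rat insulin promoter. Mice with Cre and intact FIT2 were not among the libraries, so the effects of Cre and of FIT2 loss cannot be told apart.

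Zinc is concentrated in the insulin granules of β cells, where it packs insulin into crystals and from which it is released with the hormone. The proteins of Slc30a genes (ZnT) move zinc out of the cytosol into organelles or out of the cell, those of Slc39a genes (ZIP) move it into the cytosol, and metallothioneins bind it within the cytosol. Zinc-loaded MTF1, the metal-responsive transcription factor, is known to raise transcription of Mt1, Mt2 and Slc30a1.

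In KO islets the granule transporter Slc30a8 fell, Slc30a1 and Slc30a9 fell by less, and the other 7 members did not pass the test. Genes were compared by limma on log2(FPKM + 1), where FPKM scale the fragments of a gene by its exon length and by the mapped fragments of the library, and were called at a Benjamini-Hochberg adjusted p of at most 0.05 over 13065 genes, those whose mean reached 1 FPKM in FL or in KO. All 10 members met that minimum. Of the members, 3 were called lower, against 16.5% of all tested genes, and 0 were called higher by limma, against 9.05% (25.5% in either direction). At an unadjusted limma p under 0.05, 3 members were lower, against 24.9% of all tested genes, and 2 were higher, Slc30a7 and Slc39a7, against 12.9%. By the exact permutation test 3 were lower, against 23.9%, and 1 was higher, Slc30a7, against 12%. The median log2 fold change was −0.08 over the members and −0.06 over all tested genes. Over all genes 2150 were called lower and 1183 higher, but 1485 lower and 1651 higher with the libraries rescaled by the median ratio, so the balance of directions rests on the scaling.

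The targeted gene, Fitm2, averaged 23.3 ± 9.86 FPKM in FL mice and 6.95 ± 2.36 FPKM in KO mice (SD, n = 5), with no overlap. Set against FL mouse 1, the other libraries were 1.41 to 2.40 times as deep, as estimated from the commonest ratio between libraries of values below 0.3 FPKM. The tissue was checked by markers, whose counts stand against the 16.5% of all tested genes called lower and the 9.05% called higher. Of 14 β cell genes, Ins1, Ins2 and Iapp are listed at 0 in all 10 libraries, where a 0 can be a failed estimate, and 7 of the 11 tested fell in KO. The summed FPKM of the β cell list was 3294 to 4052 in FL and 2167 to 3150 in KO. Of 9 α cell genes, of which Gcg is listed at 0 throughout, 4 of 8 tested fell, and their sum was 831 to 1045 FPKM in FL and 611 to 746 FPKM in KO. Of 5 δ and PP cell genes, 1 fell, with sums of 10825 to 26724 FPKM in FL and 16536 to 22674 FPKM in KO. Acinar genes, of which the 13 tested did not pass, summed to 4653 to 12411 FPKM in FL and 3164 to 9387 FPKM in KO mice 1 to 4, and KO mouse 5 stood apart at 22913 FPKM. Of 5 tested ductal genes 1 fell and 1 rose (sums 605 to 666 FPKM in FL and 514 to 655 FPKM in KO). Krt7 fell from 451 ± 34.9 to 356 ± 26.0 FPKM, and Cftr rose from 0.0372 ± 0.0177 to 2.13 ± 0.315 FPKM (SD, n = 5). Against the 9.05% called higher over all tested genes, endothelial genes rose in 3 of 6 (157 to 184 FPKM in FL and 178 to 240 FPKM in KO), macrophage and leukocyte genes in 2 of 5 (118 to 164 FPKM in FL and 169 to 193 FPKM in KO), and stellate cell genes in 5 of 5 (12.1 to 20.6 FPKM in FL and 24.4 to 33.7 FPKM in KO). In whole islets, fewer cells of a type and less RNA per cell cannot be told apart, and the part of cell makeup in the results on zinc genes was not tested.

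Slc30a8 encodes ZnT8, which carries zinc into insulin granules. The gene, ENSMUSG00000022315.3, lies on the plus strand of chromosome 15 from 52295553 to 52335798 (GRCm38, GENCODE M21). Across mice 1 to 5, Slc30a8 was at 277, 324, 291, 326 and 298 FPKM in FL islets. In KO islets it was at 174, 171, 209.6, 178 and 161 FPKM. The groups did not overlap, and the values nearest to each other were those of KO mouse 3 and FL mouse 1. The mean fell from 303 ± 21.2 to 179 ± 18.5 FPKM (SD, n = 5), or by 41.1%. On the log2(FPKM + 1) scale the change was −0.76 (limma: SE 0.07, adjusted p = 4.07e-05; exact two-sided permutation test p = 0.00794, the smallest that 5 mice against 5 allow). It was the single member called lower with a change of at least 1.5-fold, as were 2.22% of all tested genes. It lay between −0.82 and −0.70 under 23 other settings, with an adjusted p of 1.32e-05 to 0.00148 from limma. Without KO mouse 5, the lowest in Slc30a8 and the highest in acinar genes, it was −0.73.

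**Figure D1:**
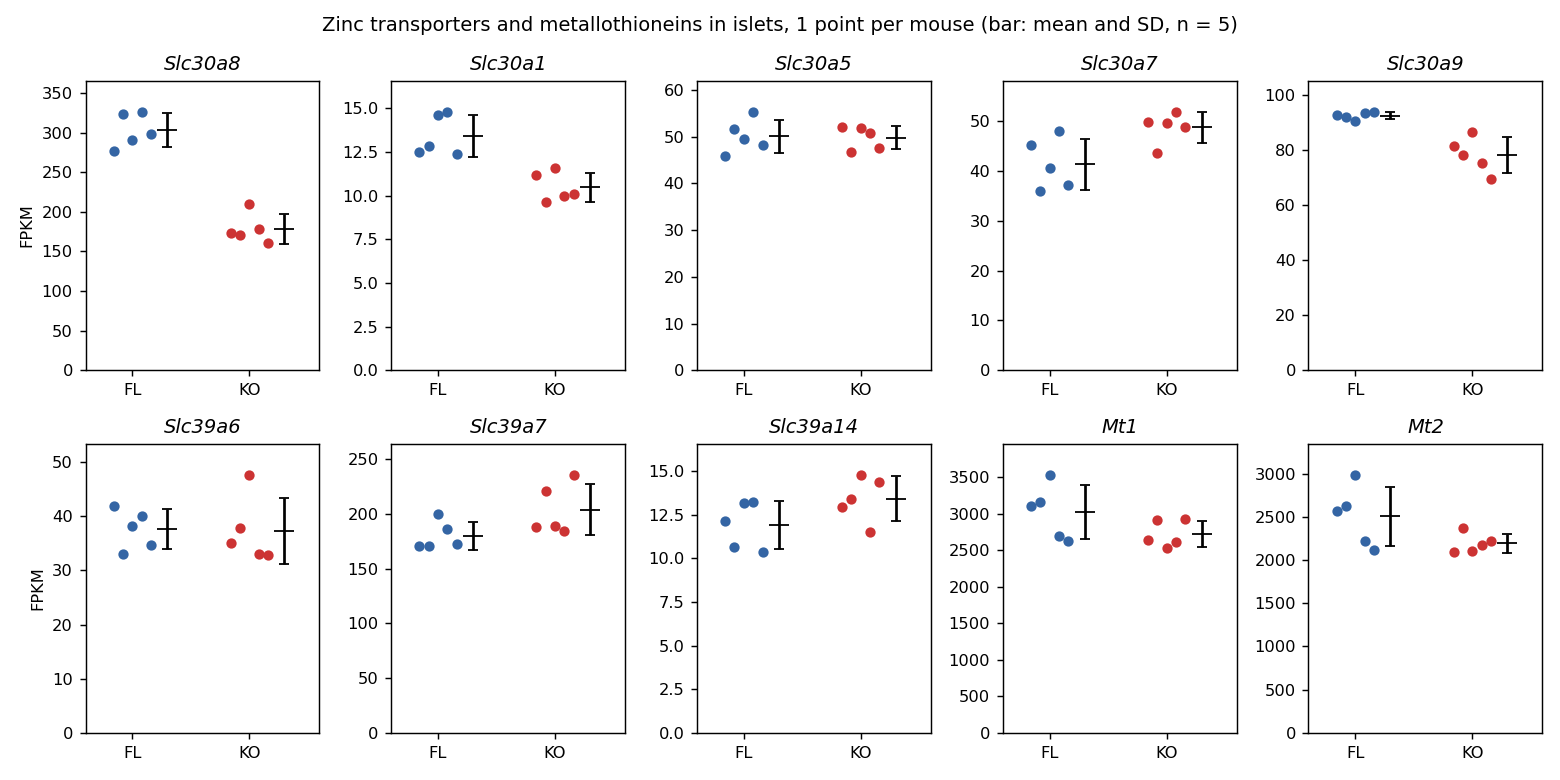
FPKM (vertical axes, from 0) of the 10 members in FL (blue) and KO (red) islets, with 1 point per mouse and the mean and SD of 5 mice beside them. In Slc30a8, Slc30a1 and Slc30a9 all 5 KO points lie below the 5 FL points; in the other panels the groups overlap.

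Slc30a8 made up most of the Slc30a mRNA in FL islets and less in KO islets. It accounted for 55.1% to 59.3% of the summed FPKM of Slc30a genes in FL mice and for 43.3% to 47.4% in KO mice. The sum fell from 532 ± 28.2 to 396 ± 29.6 FPKM, while the Slc30a genes other than Slc30a8 summed to 228 ± 11.1 and 218 ± 12.8 FPKM in FL and KO mice (SD, n = 5). In 0 of 5 FL mice and in 4 of 5 KO mice, Slc39a7 was at higher FPKM than Slc30a8, the exception being KO mouse 3.

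**Figure D2:**
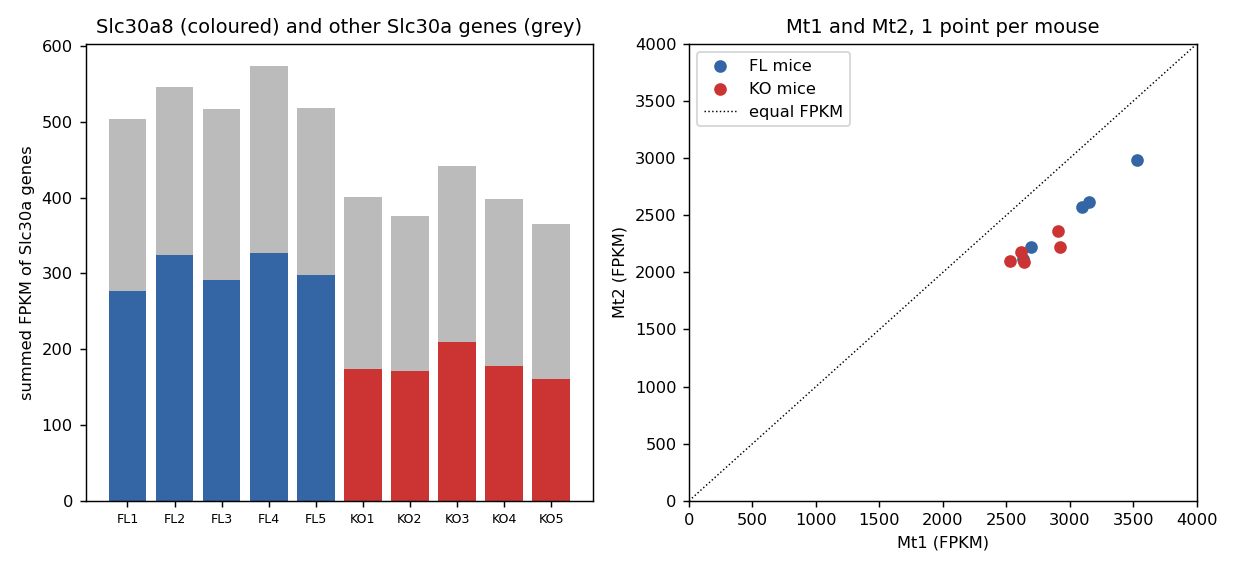
Left, summed FPKM of Slc30a genes in each library, with Slc30a8 in blue (FL) or red (KO) and the other Slc30a genes in grey; the coloured part is smaller in every KO library and the grey part is of similar height. Right, FPKM of Mt2 against Mt1, 1 point per mouse, all below the dotted line of equal FPKM.

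A ratio within a library is not changed by 1 factor for the whole library, as in median-ratio, upper-quartile and TPM scaling, but can change with quantile normalization. In all, 9 such ratios were tested, chosen after the values had been seen. The ratio of Slc30a8 to Slc30a9 was 3.28 ± 0.224 in FL and 2.28 ± 0.119 in KO, and that of Slc30a8 to Slc30a1 was 22.7 ± 2.04 and 17.0 ± 1.20 (SD, n = 5; exact permutation test p = 0.00794 for each, 0.0179 adjusted over the 9). By its fold change Slc30a8 fell by more than the other called members. That order was seen before the ratios were chosen, so their p-values are no separate test of it. Its ratio to Slc30a5 was 6.05 ± 0.166 in FL and 3.58 ± 0.285 in KO (SD, n = 5), with the same exact and adjusted p. Against Slc2a2, the glucose transporter of mouse β cells, its ratio was 1.07 to 1.45 in FL mice and 0.976 to 1.35 in KO mice (exact permutation test p = 0.595, n = 5). Slc2a2 fell from 245 ± 34.5 to 151 ± 25.0 FPKM (SD, n = 5). Against Nkx6-1, a β cell transcription factor also chosen after its values were seen, which fell from 108 ± 5.60 to 76.0 ± 3.99 FPKM, the ratio of Slc30a8 went from 2.81 ± 0.226 to 2.35 ± 0.21 (SD, n = 5; exact permutation test p = 0.0238, 0.0429 adjusted over the 9).

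The tested genes whose profile over the 10 libraries was nearest to that of Slc30a8, by the root mean square distance of mean-centred log2(FPKM + 1), were Slc7a2 (distance 0.07), P2ry1 (0.08) and Zdbf2 (0.09). Slc7a2, a cationic amino acid transporter also on the α cell list, fell from 114 ± 5.91 to 65.2 ± 7.51 FPKM (SD, n = 5). P2ry1, a receptor for ADP, averaged 17.2 ± 1.95 and 10.4 ± 0.759 FPKM in FL and KO mice, and Zdbf2 averaged 10.7 ± 0.858 and 6.41 ± 0.959 FPKM (SD, n = 5).

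Slc30a1 encodes ZnT1, the zinc exporter of the plasma membrane. It lies on the plus strand of chromosome 1 from 191906767 to 191913247 and overlaps an antisense gene, 1700034H15Rik, listed at 0.0927 to 1.63 FPKM. Slc30a1 was at 12.5, 12.8, 14.6, 14.8 and 12.4 FPKM in FL mice 1 to 5 and at 11.2, 9.66, 11.6, 9.96 and 10.1 FPKM in KO mice. All KO values were below all FL values, although KO mouse 3 and FL mouse 5 differed by under 1 FPKM. The log2 fold change was −0.33 (limma: SE 0.07, adjusted p = 0.00623) and stayed past the threshold in all 23 other settings. The ratio of Slc30a1 to Mt1 was 0.00449 ± 0.000626 in FL and 0.00388 ± 0.000527 in KO (SD, n = 5; exact permutation test p = 0.127, 0.163 adjusted over the 9), a difference that did not pass.

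Slc30a9 encodes ZnT9, a transporter of mitochondria. It lies on the plus strand of chromosome 5 from 67306955 to 67358443. In FL mice 1 to 5 it was at 92.8, 92.1, 90.6, 93.3 and 93.8 FPKM, the narrowest spread of the members relative to its level. In KO mice it was at 81.3, 78.1, 86.7, 75.3 and 69.3 FPKM, lower in every mouse and more spread. Its log2 fold change of −0.24 (limma: SE 0.06, adjusted p = 0.00998) was past the threshold in all 23 other settings, with an adjusted p of up to 0.0411. Without KO mouse 5, again the lowest, it was −0.20 (adjusted p = 0.0136 from limma). The 3 members called lower were also the 3 without overlap between groups, a pattern found in 12.5% of all tested genes with KO below FL and in 6.67% with KO above FL.

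Slc30a7 and Slc30a5 encode ZnT7 and ZnT5, which supply zinc to the Golgi and the early secretory pathway. Slc30a7, at chromosome 3, minus strand, from 115938973 to 116007406, was at 45.2, 36.0, 40.6, 48.0 and 37.1 FPKM in FL mice and at 49.9, 43.7, 49.8, 51.9 and 48.9 FPKM in KO mice. In KO, 4 mice were above the highest FL mouse, and KO mouse 2 was within the FL range. The log2 fold change of 0.24 (limma: SE 0.08, adjusted p = 0.055; exact permutation test p = 0.0317) did not pass the threshold. It passed in 9 of 23 other settings, within a range of adjusted p from 0.00788 to 0.123. These were the 4 rescalings, sample weights, the replicate block (0.0339), and leaving out FL mouse 1 (0.0468), FL mouse 4 (0.0207) or KO mouse 2 (0.0343). Of the 75-base stretches of its transcripts, 14.9% occur in other genes, among them pseudogenes within Slc30a7 that are listed at no more than 0.325 FPKM.

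Slc30a5, at chromosome 13, minus strand, from 100802648 to 100833427, was at 45.9 to 55.3 FPKM in FL (median 49.5) and 46.6 to 52.2 FPKM in KO (median 50.8). All KO values were inside the FL range. The log2 fold change was −0.01, with a 95% interval of −0.13 to 0.12 (adjusted p = 0.943 from limma), and its sign was positive under each of the 4 rescalings. The ratio of Slc30a7 to Slc30a5 was 0.828 ± 0.108 in FL and 0.979 ± 0.0411 in KO (SD, n = 5; exact permutation test p = 0.0317, 0.0476 adjusted over the 9 ratios).

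Of the ZIP importers among the members, none passed the test. Slc39a7 encodes ZIP7, which releases zinc from the ER into the cytosol, and had the highest FPKM of the measured Slc39a genes, with 48.6% to 52.7% of their summed FPKM in FL mice and 48.0% to 56.3% in KO mice. It was at 171, 171, 199.99, 186 and 173 FPKM in FL mice and at 189, 221, 189, 185 and 236 FPKM in KO mice. KO mice 2 and 5 were above all FL mice and the other 3 were among them. The log2 fold change was 0.17 (limma: SE 0.08, adjusted p = 0.132) and 0.12 without KO mouse 5 (adjusted p = 0.256), and it passed with upper-quartile rescaling alone (adjusted p = 0.0494). The gene is found at chromosome 17, minus strand, from 34028269 to 34031682. As 71.6% of its 75-base stretches are shared with Gm20427, a transcript of the same strand listed at no more than 0.247 FPKM, the split of reads between these is uncertain.

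Slc39a6 encodes ZIP6, an importer of the plasma membrane, and is found at chromosome 18, minus strand, from 24579881 to 24603817, where its annotation overlaps Elp2 on the other strand (32.2 to 41.4 FPKM). It was at 33.1 to 41.8 FPKM in FL (median 38.2) and 32.8 to 47.7 FPKM in KO (median 34.98). KO mouse 3 was the highest of all 10. The log2 fold change was −0.02, with a 95% interval of −0.25 to 0.21 (adjusted p = 0.91 from limma), and its sign was positive under the 4 rescalings. Slc39a14 encodes ZIP14, which carries zinc and iron, and is found at chromosome 14, minus strand, from 70303469 to 70351425. It was at 10.4 to 13.2 FPKM in FL (median 12.2) and 11.5 to 14.8 FPKM in KO (median 13.4), with 3 KO mice above all FL mice. Its log2 fold change was 0.16, with a 95% interval of −0.03 to 0.35 (adjusted p = 0.2 from limma).

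**Figure D3:**
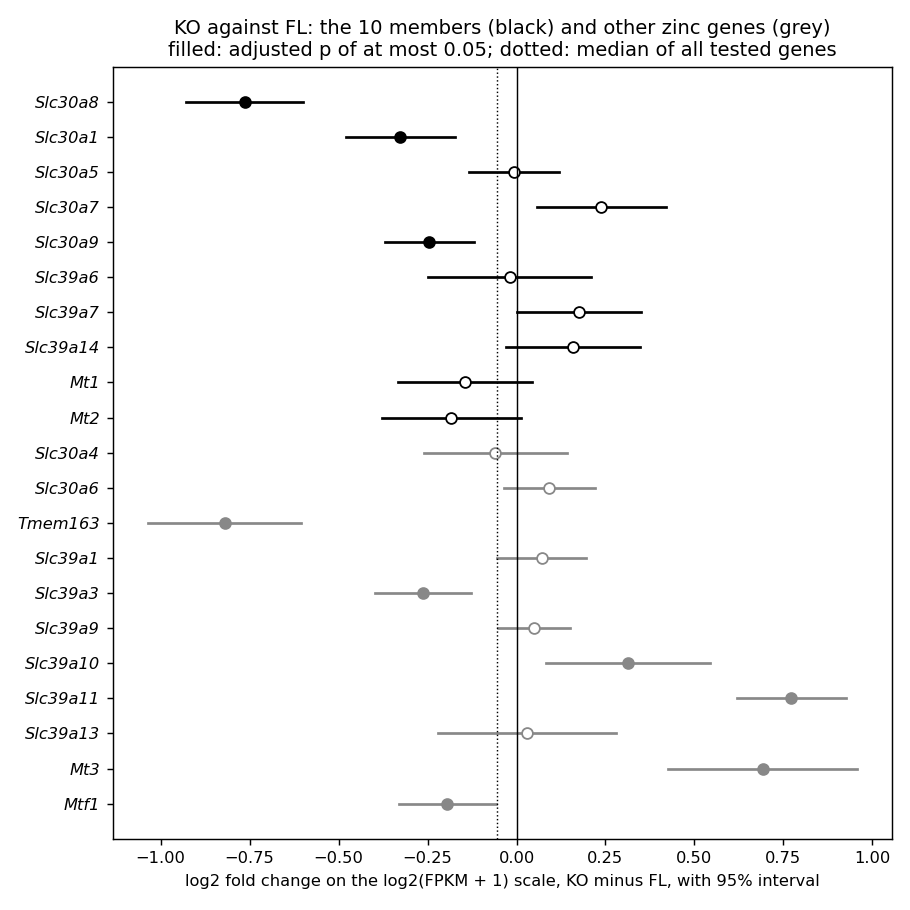
Log2 fold change (KO minus FL, on the log2(FPKM + 1) scale) with its 95% interval from limma for the 10 members (black) and the 11 other zinc genes tested (grey); filled points passed an adjusted p of 0.05, and the dotted line is the median of all tested genes. Slc30a8 and Tmem163 lie farthest to the left, at −0.76 and −0.82, and Slc39a11 and Mt3 farthest to the right, at 0.77 and 0.69.

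Mt1 and Mt2 encode small cysteine-rich proteins that hold zinc in the cytosol and are induced by metals, glucocorticoids and oxidative stress. Among the values as listed, where Ins1, Ins2, Iapp and Gcg are at 0, they ranked 11th and 14th by mean FPKM and together made up 0.728% to 0.978% of all FPKM in FL mice and 0.712% to 0.841% in KO mice. Mt1 was at 3097, 3152, 3531, 2692 and 2630 FPKM in FL mice 1 to 5 and at 2637, 2907, 2526, 2613 and 2922 FPKM in KO mice. Mt2 was at 2572, 2620, 2986, 2224 and 2120 FPKM in FL mice and at 2091, 2366, 2103, 2177 and 2219 FPKM in KO mice. The same 3 FL mice, 1 to 3, were highest for both genes, and FL mice 4 and 5 were among the KO values. The log2 fold change was −0.14 for Mt1 (95% interval −0.33 to 0.04, adjusted p = 0.243 from limma) and −0.18 for Mt2 (−0.38 to 0.01, adjusted p = 0.157 from limma). With a mouse left out it went from −0.19 to −0.09 for Mt1 and from −0.24 to −0.12 for Mt2, and did not pass. The smallest falls of both came without FL mouse 3. The sign for Mt2 turned to 0.06 with quantile normalization, under which Mt1 was at −0.01. A fall of the size of Slc30a8 lies outside both intervals.

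Mt1 and Mt2 kept close to each other from mouse to mouse. Mt2 was below Mt1 in 10 of 10 libraries, at 0.806 to 0.846 of its FPKM in FL mice and 0.759 to 0.833 in KO mice (exact permutation test p = 0.214, n = 5). Of all tested genes, Mt2 had the profile nearest to that of Mt1, at a root mean square distance of 0.04 on the log2 scale, followed by Irf1 and Tle1 at 0.08 each. Irf1, an interferon-regulated transcription factor, averaged 32.4 ± 3.72 and 29.6 ± 1.42 FPKM in FL and KO mice, and Tle1, a corepressor, 18.1 ± 1.56 and 16.7 ± 1.20 FPKM (SD, n = 5). No 75-base stretch of Mt1 occurs in a transcript of another gene, whereas 30.2% of those of Mt2 are shared, in antisense, with Gm45774.

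Both genes lie on the plus strand of chromosome 8, Mt2 from 94172664 to 94173568 and Mt1 from 94179082 to 94180327, with 5513 bases between them. Their upstream sequences are shown because the genes moved together, and that of Slc30a1 because it is a known target of the same factor, MTF1, and fell. Each is the 250 bases before the start of the gene in RefSeq (GRCm38.p6), 5′ to 3′ on the plus strand, at chr8:94178839-94179088 for Mt1, chr8:94172368-94172617 for Mt2 and chr1:191906531-191906780 for Slc30a1. Capitals mark the core letters of the metal response element to which MTF1 binds, searched as TGCACNC or TGCGCNC on both strands.
Mt1: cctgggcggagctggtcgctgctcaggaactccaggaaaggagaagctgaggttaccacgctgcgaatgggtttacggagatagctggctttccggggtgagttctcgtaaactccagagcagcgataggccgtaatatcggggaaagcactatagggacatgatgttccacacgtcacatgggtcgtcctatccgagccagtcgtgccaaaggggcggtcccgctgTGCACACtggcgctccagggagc
Mt2: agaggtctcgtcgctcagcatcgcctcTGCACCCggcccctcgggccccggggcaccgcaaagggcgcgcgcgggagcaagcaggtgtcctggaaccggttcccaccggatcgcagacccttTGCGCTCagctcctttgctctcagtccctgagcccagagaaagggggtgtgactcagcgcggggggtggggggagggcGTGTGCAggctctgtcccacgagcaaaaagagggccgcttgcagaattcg
Slc30a1: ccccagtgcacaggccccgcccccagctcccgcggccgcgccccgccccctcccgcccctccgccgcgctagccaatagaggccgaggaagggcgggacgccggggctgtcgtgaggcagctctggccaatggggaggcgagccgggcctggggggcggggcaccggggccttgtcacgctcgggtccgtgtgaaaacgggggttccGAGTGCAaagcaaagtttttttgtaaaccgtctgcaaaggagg

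The Mt2 window holds 3 separate matches, as 1.26% of 32851 promoters do or exceed, and those of Mt1 and Slc30a1 hold 1 each, as 21.4% of promoters do or exceed. Starts differ between annotations. GENCODE lists 3 Mt1 transcripts, the last of which begins at 94179241, and the 159 bases from the first start to the last hold 4 further matches. For Mt2 the 196 bases between its first and last annotated starts hold 3 further matches. Of the other members with a RefSeq window, Slc30a5 has 1 match, and Slc30a7, Slc30a9 and Slc39a7 have 0. A match is a description of letters and not a measured binding site.

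The remaining zinc genes went both ways. Of 20 on the lists of other exporters, importers, metallothioneins and MTF1, 11 were tested, and the median log2 fold change was 0.05. In KO 3 were lower, against 16.5% of all tested genes, and 3 were higher, against 9.05%. Tmem163, Slc39a3, Slc39a11 and Mt3 passed in all 23 other settings, but Mtf1 lost its call in 12 and Slc39a10 in 9. Tmem163, a zinc transporter of vesicle membranes, fell from 76.8 ± 8.86 to 43.1 ± 5.22 FPKM (SD, n = 5) with a change of −0.82 on the log2(FPKM + 1) scale (limma: SE 0.10, adjusted p = 0.000171). Its KO values, 38.5 to 50.9 FPKM, were all below its FL values, 62.7 to 87.2 FPKM. The other exporters tested, Slc30a4 (22.8 ± 2.81 and 21.8 ± 2.37 FPKM) and Slc30a6 (7.76 ± 0.572 and 8.33 ± 0.45 FPKM; SD, n = 5), did not pass.

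Slc39a11, which encodes ZIP11 of the Golgi and nucleus, rose from 17.6 ± 1.08 to 30.9 ± 2.99 FPKM (SD, n = 5). Its KO values, 27.4 to 34.5 FPKM, lay above all FL values, 16.5 to 19.2 FPKM, and its log2 fold change was 0.77 (limma: SE 0.07, adjusted p = 2.31e-05). Slc39a9 (31.9 ± 1.41 and 33.1 ± 1.33 FPKM) and Slc39a13 (23.9 ± 3.51 and 24.4 ± 3.09 FPKM; SD, n = 5) did not pass. The importer genes Slc39a3 and Slc39a10, named here after their values were seen, passed with log2 fold changes of −0.26 (adjusted p = 0.0105 from limma) and 0.31 (adjusted p = 0.0483 from limma). Slc39a10 did not pass without FL mouse 2, 3, 4 or 5 or without KO mouse 1, 2 or 3, nor with no filter on low FPKM or with limma without a trend (adjusted p up to 0.108).

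Mt3, the metallothionein known best from brain, lies on the same chromosome 18517 bases upstream of Mt2. It was at 5.47 to 8.70 FPKM in FL and 9.92 to 13.9 FPKM in KO without overlap, a log2 change of 0.69 (limma: SE 0.12, adjusted p = 0.00203). The ratio of Mt3 to Mt1 was 0.00236 ± 0.000548 in FL and 0.00439 ± 0.000714 in KO (SD, n = 5; exact permutation test p = 0.00794, 0.0179 adjusted over the 9 ratios). It did not overlap between the groups (0.00187 to 0.00307 in FL and 0.0038 to 0.00552 in KO). This pair was chosen after its values had been seen, so the p-value is no separate test of the difference. Mt4 is listed at 0 in all libraries. Mtf1 averaged 11.7 ± 0.933 FPKM in FL mice and 10.1 ± 0.621 FPKM in KO mice (SD, n = 5), a log2 change of −0.19 (limma: adjusted p = 0.0402). Mtf1 did not pass under the 4 rescalings, with no filter, or without FL mouse 2, 3 or 5 or KO mouse 1, 3, 4 or 5 (adjusted p up to 0.12). Of 7 tested genes that glucocorticoids induce, 2 were lower, against 16.5% of all tested genes, and the other 5 did not pass. These were Tsc22d3 and Per1, named after their values were seen. With no filter or with TPM scaling 1 was lower, against 7.54% and 11.7% of all tested genes. Without FL mouse 3, FL mouse 4 or KO mouse 4 it was also 1, against 12.7%, 14.1% and 12.2%. With sample weights or without KO mouse 3, 1 was higher, against 11% and 8.65%.

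Levels among the members spanned from Mt1 to Slc39a14. In FL islets the order by mean FPKM was Mt1 (3020), Mt2 (2505), Slc30a8 (303), Slc39a7 (180), Slc30a9 (92.5), Slc30a5 (50.1), Slc30a7 (41.4), Slc39a6 (37.6), Slc30a1 (13.4) and Slc39a14 (11.9). The FL ranges of Slc30a5 and Slc30a7, of Slc30a7 and Slc39a6, and of Slc30a1 and Slc39a14 overlapped, as did those of Mt1 and Mt2. In KO islets Slc39a7 (204 FPKM) and Slc30a8 (179 FPKM) changed places, with ranges of 185 to 236 and 161 to 209.6 FPKM that overlapped, as did Slc39a14 (13.4 FPKM) and Slc30a1 (10.5 FPKM).

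**Figure D4:**
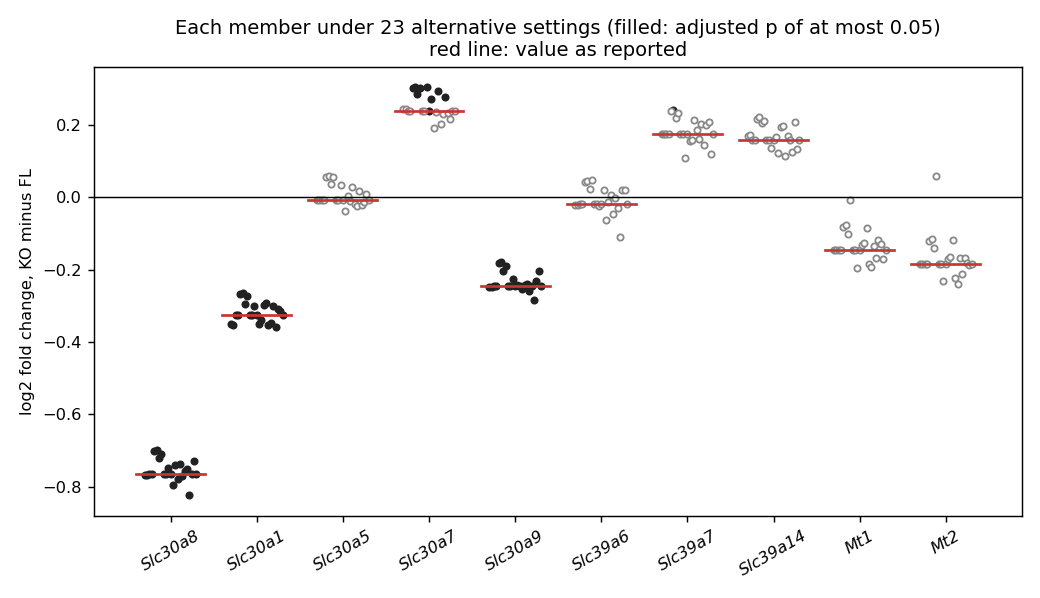
Log2 fold change of each member (KO minus FL) under 23 alternative settings of the test; filled points passed an adjusted p of 0.05, and the red line is the value as reported. All points of Slc30a8, Slc30a1 and Slc30a9 are filled and below 0, those of Slc30a7 are above 0 and partly filled, and those of Slc30a5 and Slc39a6 lie on both sides of 0.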

How the data were processed

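Per the labels, polyadenylated RNA of islets was made into stranded TruSeq libraries and read from a single end over 75 nt on a NextSeq. The authors deposited 1 table of FPKM, a column per mouse, already normalised. The submitters' processing notes name STAR 2.5.2a, Cuffnorm 2.2.1 and the builds mm10 and GRCm38; whether reads were counted by strand is not given in the sources used here. FPKM do not hold read numbers, so no counting error was computed.

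The test between groups was limma (version 3.58.1, R version 4.3.3), by lmFit and eBayes with a trend, on log2(FPKM + 1), without covariates, and tested on simulated data. This pseudocount understates the change of low genes. Single genes and ratios were compared with exact two-sided permutation tests. Intervals are limma's, at 95%. Members and lists were chosen with earlier results of these data known. The rule named all members, the 3 highest genes of each zinc list, genes of the zinc, glucocorticoid and copper and iron lists passing with a 1.5-fold change, and the 3 nearest profiles of Slc30a8 and Mt1. Marker lists are given as sums and counts, with Krt7 and Cftr of the ductal list named after their values were seen. Slc39a3, Slc39a10, Slc2a2, Nkx6-1, Tsc22d3, Per1 and the copper and iron genes were named after their values were seen. Promoters matched for 7 of 10 members. Alternatives covered pseudocounts of 0.1 and 0.01, filters, scalings, limma's variance model, the replicate block, thresholds and each mouse left out. Other steps ran in Python 3.11.15 with numpy 2.4.6, pandas 2.3.3 and, for plots, matplotlib 3.10.9.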

Additional observations from a re-analysis of the deposited data

Results flagged for a closer look

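Among the 10 members and the 11 other zinc genes tested, 42 groups of 5 FL or 5 KO mice were looked at, and 1 group had a mouse far from the others, where 2.1 would be given by chance. Slc30a4 was at 27.7 FPKM in FL mouse 4 and at most 22.2 FPKM in the other FL mice, a gap of 0.805 of the range of the group. None of the members had such a mouse.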

How the results depend on the processing

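Slc30a8, Slc30a1 and Slc30a9 kept their direction and their side of the threshold in all 23 settings in which a fold change was fitted again. When calls also had to reach 1.5-fold, 1 member was lower (Slc30a8), 1 other zinc gene was lower and 2 were higher, and 290 of all genes were lower and 349 higher. The count of other zinc genes called lower was 2 under each of the 4 rescalings, against 11.1% to 13.1% of all tested genes. With no filter it was 2, against 7.54%, and with a mouse left out 2 to 3, against 12.2% to 18.1%. Mtf1 did not pass under the rescalings or with no filter. Other zinc genes called higher numbered 2 with no filter and with limma without a trend, as Slc39a10 did not pass, against 5.08% and 9.09%. With a mouse left out they numbered 2 to 3, against 7.17% to 8.65%. At an adjusted p of 0.01, 1 other zinc gene was lower and 2 were higher, and 1044 of all genes were lower and 622 higher. The count of members higher in KO was 1 under median-ratio, TPM and quantile scaling, sample weights and the replicate block, 2 under upper-quartile scaling, and 0 to 1 with a mouse left out. That member was Slc30a7, with Slc39a7 as the second. The share of all tested genes called higher went from 9.05% to between 10.6% and 12.8% under the 4 rescalings and to 11% with sample weights, and was 6.69% with the block. For Slc30a5 the log2 fold change was 0.0552 under median-ratio, 0.0587 under upper-quartile, 0.0556 under quantile and 0.0362 under TPM scaling, 0.0328 with sample weights, and between −0.0374 and 0.0285 with a mouse left out. For Slc39a6 it was 0.0419, 0.0454, 0.0474 and 0.023 under median-ratio, upper-quartile, quantile and TPM scaling, and between −0.11 and 0.0212 with a mouse left out. For Mt2 it was 0.0595 under quantile scaling. Median-ratio scaling moved the median of all tested genes from −0.06 to 0.000562, and other causes were not tested. Dropping genes at 0 in all mice of FL or of KO was chosen after the data were seen and changed no call of a member. Replicate numbers come from the titles. Deviations of FL and KO mice with the same number correlated across genes at −0.10 to 0.00, and in no library was the best match its own number, so the numbers were not taken as pairs. The depth behind a value is known only in relative terms.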

Other observations

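Of 11 tested genes of copper and iron handling, named here after their values were seen, 6 were higher in KO islets by limma, against 9.05% of all tested genes, and 1 was lower, against 16.5%. Under each of the 4 rescalings 7 were higher, against 10.6% to 12.8% of all tested genes, and 1 was lower, against 11.1% to 13.1%. With a mouse left out 4 to 6 were higher, against 7.17% to 8.65%, and 0 to 2 lower, against 12.2% to 18.1%. With the filter at 5 FPKM, robust eBayes or sample weights 3 were lower, against 19%, 16.4% and 21.7%. At an adjusted p of 0.01, 3 were higher and 0 lower, against 622 higher and 1044 lower of the 13065 tested genes. When calls also had to reach 1.5-fold, 0 passed, against 290 lower and 349 higher of the 13065 tested genes. Slc31a1, the copper importer of the plasma membrane, rose from 15.1 ± 0.728 to 22.2 ± 2.08 FPKM, and Atox1, a copper chaperone, from 153 ± 8.79 to 211 ± 33.7 FPKM (SD, n = 5). Slc40a1, the iron exporter ferroportin, rose from 53.1 ± 10.1 to 74.9 ± 11.3 FPKM, while Atp7a, a copper pump, fell from 16.6 ± 0.871 to 12.7 ± 2.35 FPKM (SD, n = 5). Of the 4 that did not pass, Tfrc was at a log2 fold change of −0.35 (adjusted p = 0.0504 from limma). Fth1 was at −0.17 (adjusted p = 0.0524 from limma), Ftl1 at −0.01 and Hmox1 at 0.29 (adjusted p = 0.0642 from limma). The median log2 fold change of these 11 genes was 0.19, against −0.06 over all tested genes. Of marker genes, 3 of 6 endothelial, 2 of 5 macrophage and leukocyte and 5 of 5 stellate cell genes also rose in KO. In these lists 0 genes were lower. The part of cell makeup in the copper and iron results was not tested.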
